A study of Mus musculus with 16 samples.

Results

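The 28 genes described here carry out cholesterol synthesis, control it, or move cholesterol taken up from outside within the cell. They were listed by name and comprise 8 enzymes of the mevalonate steps, 3 of the squalene and lanosterol steps, 9 of the post-lanosterol steps, 5 genes of the SREBP control circuit and 3 sterol trafficking proteins. All 28 were among the 55335 genes counted and all 28 passed the low-count filter that left 19764 genes for testing. The lowest count of any member in any library was 229, for Idi1. Further genes of the pathway are not analysed here.

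The cells were oligodendrocyte precursors (OPCs) raised from mouse neural stem cells as spheres and then kept 4 days as a monolayer before their RNA was sequenced. The 4 groups of 4 libraries were RXRgKO (RXRg-/-) OPCs given T3, the active thyroid hormone, for 24 h, WT (RXRg+/+) OPCs given T3 for 24 h, untreated RXRgKO OPCs and untreated WT OPCs. All groups share the strain label C57BL6J/129svEmx mixed background. The design asks how loss of RXRg, a retinoid X receptor that pairs with thyroid hormone receptors on DNA, changes the cells and their answer to T3. Nothing in the labels ties a replicate to its own culture or animal. The p-values therefore measure the spread between these libraries alone, which may be technical.

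Cholesterol is built from acetyl-CoA. The mevalonate steps make isoprenoid units, squalene synthesis joins them, and the post-lanosterol enzymes trim and reduce the first sterol to cholesterol. The transcription factors SREBP-1 and SREBP-2, encoded by Srebf1 and Srebf2, are held in the endoplasmic reticulum by Scap and the Insig proteins while sterols are plentiful, and turn on most synthesis genes when sterols fall. Myelin is rich in cholesterol, which oligodendrocytes largely make themselves, and T3 is a known signal for OPCs to differentiate.

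Libraries held 18262279 to 42588442 gene counts. The label check went against the genotype labels. Rxrg, the gene meant to be lost, stood at 5.46, 4.89, 4.27 and 5.05 CPM (normalised read counts scaled to a common library size) in the RXRgKO-labelled T3 libraries, against 0.885, 0.960, 0.597 and 0.371 CPM in the WT-labelled T3 libraries. Without T3 it stood at 4.83, 3.77, 4.60 and 3.79 CPM under the RXRgKO label, against 1.79, 1.48, 1.14 and 1.65 CPM under the WT label. Groups are therefore named by their labels throughout, and whether the counted reads lie outside the deleted part was not tested. Libraries of a group also fell into sets. A chi-square per gene was 1.50 to 2.12 between libraries of a set and 4.94 to 9.62 between sets. In both WT-labelled groups replicate 1 stood alone, and its Gfap level was 11207 CPM with T3 and 4728 CPM untreated. The other WT-labelled libraries had at most 2834 CPM of Gfap with T3 and 1001 CPM untreated. In the RXRgKO-labelled groups 2 libraries with T3 and 2 without were low in Xist (1.39 to 3.75 CPM) and were given one set name. The chi-square compared libraries within a group only, so sets were not shown to be alike between treatments. Each of the other 12 libraries had at least 276 CPM of Xist. WT-labelled replicates 2 to 4 had 276 to 365 CPM of Xist with T3 and 1198 to 1382 CPM untreated. Their Y-linked Ddx3y was 68.1 to 78.3 CPM with T3 and 13.9 to 15.8 CPM untreated, against 60.6 and 73.3 CPM in replicate 1. Under the RXRgKO label, libraries with Xist had 20.7 and 22.1 CPM of Ddx3y with T3, against 51.2 and 52.9 CPM untreated. Those low in Xist had 115 to 126 CPM. What these differences between treatments contribute to the T3 results was not tested.

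Markers of other cell states moved with the genotype labels. Summed over 10 myelinating oligodendrocyte markers, the level was 3574 to 5703 CPM in RXRgKO-labelled T3 libraries, against 20569.8 to 30833 CPM in WT-labelled T3 libraries. Untreated, it was 1853 to 2465 CPM under the RXRgKO label, against 13671 to 18656 CPM under the WT label. Of these markers 9 of 10 were lower under the RXRgKO label with T3 and 10 of 10 without, against 6.8% and 5.16% of all genes. T3 raised 7 of 10 under each label, against 2.01% of all genes under the RXRgKO label and 4.96% under the WT label. All 9 OPC markers were detected in every group, and edgeR called 0 of 9 different in any of the 5 comparisons, as did DESeq2 and voom. At an unadjusted p under 0.05 the count was 4 and 2 for T3 under the RXRgKO and WT labels, 1 between labels with T3, 1 without and 0 for the difference in response. Summed mesenchymal and mural markers were 158 to 166 and 184 to 276 CPM under the RXRgKO label with and without T3, against 30.0 to 48.7 and 34.9 to 51.2 CPM under the WT label. Of these 6 markers 5 were higher under the RXRgKO label with T3 and 5 without, against 8.1% and 6.17% of all genes. Some other lists moved with the label too. Higher under the RXRgKO label with and without T3 were 5 and 5 of 6 microglial, 3 and 3 of 3 ependymal, 3 and 3 of 4 endothelial and 4 and 2 of 8 neuronal markers. Of 7 astrocyte markers edgeR called 0 between labels with T3 and 0 without, and DESeq2 called 0 and 1. Microglial markers summed to 3.54 to 13.5 and 7.82 to 14.7 CPM under the RXRgKO label with and without T3, against 1.69 to 2.39 and 1.50 to 2.15 CPM under the WT label. Of 6 proliferation markers 3 were lower under the RXRgKO label with T3, against 6.8% of all genes, and their sum was 267 to 511 CPM there, against 569.7 to 746 CPM under the WT label. Untreated, 0 of the 6 were called by edgeR, with 1 lower at an unadjusted p under 0.05. The untreated sum was 481 to 631 CPM under the RXRgKO label, against 628 to 778 CPM under the WT label. No marker was at 0 in all libraries of a group. In bulk RNA, fewer cells of a type and less RNA per cell cannot be told apart, and the part of these markers in the results below was not tested.

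The promoters of the 5 members with the smallest adjusted p for T3 under the WT label are shown because these genes rose together. That of Hmgcs1 is added, chosen after its sequence was seen, because it alone among the 23 members with a window held the sterol regulatory element searched for. The windows run from 250 bases before to 50 bases after the RefSeq gene start on GRCm38.p6 and read 5′ to 3′ on the gene's strand. Capitals mark matches, on either strand, to the sterol regulatory element letters TCACNCCAC, the CCAAT box (CCAAT) and the GC box (GGGCGG), and no motif contains another.
Hsd17b7, chr1:169969156-169969455, minus strand: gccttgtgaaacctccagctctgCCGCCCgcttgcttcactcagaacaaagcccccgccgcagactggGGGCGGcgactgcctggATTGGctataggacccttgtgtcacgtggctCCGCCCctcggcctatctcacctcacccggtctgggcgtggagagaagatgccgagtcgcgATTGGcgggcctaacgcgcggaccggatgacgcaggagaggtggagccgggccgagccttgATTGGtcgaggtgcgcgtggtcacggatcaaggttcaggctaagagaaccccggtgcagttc
Ebp, chrX:8193463-8193762, minus strand: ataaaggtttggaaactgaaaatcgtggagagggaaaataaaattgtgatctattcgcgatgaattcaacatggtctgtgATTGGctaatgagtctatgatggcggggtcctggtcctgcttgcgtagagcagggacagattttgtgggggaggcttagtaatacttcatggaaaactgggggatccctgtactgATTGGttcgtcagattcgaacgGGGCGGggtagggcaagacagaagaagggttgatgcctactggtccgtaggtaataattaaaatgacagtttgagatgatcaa
Acat2, chr17:12960676-12960975, minus strand: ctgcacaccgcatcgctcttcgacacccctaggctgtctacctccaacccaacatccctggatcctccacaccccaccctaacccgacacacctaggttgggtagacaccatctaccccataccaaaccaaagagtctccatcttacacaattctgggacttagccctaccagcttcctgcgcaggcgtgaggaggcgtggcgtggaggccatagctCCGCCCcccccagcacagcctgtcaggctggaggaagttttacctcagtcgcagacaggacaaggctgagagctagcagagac
Pmvk, chr3:89454291-89454590, plus strand: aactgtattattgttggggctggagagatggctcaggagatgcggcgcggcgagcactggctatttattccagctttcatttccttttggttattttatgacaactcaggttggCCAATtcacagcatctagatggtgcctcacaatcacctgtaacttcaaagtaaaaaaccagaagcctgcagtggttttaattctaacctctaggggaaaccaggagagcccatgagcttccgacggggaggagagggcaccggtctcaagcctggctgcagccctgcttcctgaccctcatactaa
Sc5d, chr9:42264251-42264550, minus strand: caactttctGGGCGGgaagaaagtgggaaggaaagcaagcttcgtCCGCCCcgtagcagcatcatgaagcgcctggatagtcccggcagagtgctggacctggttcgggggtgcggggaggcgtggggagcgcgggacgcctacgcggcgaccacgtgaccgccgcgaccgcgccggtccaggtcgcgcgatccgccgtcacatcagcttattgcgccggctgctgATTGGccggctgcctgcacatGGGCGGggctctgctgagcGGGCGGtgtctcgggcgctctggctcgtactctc
Hmgcs1, chr13:119690101-119690400, plus strand: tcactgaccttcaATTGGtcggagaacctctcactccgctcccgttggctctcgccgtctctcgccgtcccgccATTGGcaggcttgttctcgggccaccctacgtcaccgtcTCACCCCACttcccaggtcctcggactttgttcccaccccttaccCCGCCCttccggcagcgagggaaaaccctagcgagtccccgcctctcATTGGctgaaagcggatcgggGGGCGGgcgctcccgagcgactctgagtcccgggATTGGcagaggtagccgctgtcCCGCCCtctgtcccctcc
Of the 31 windows found for 23 members, 22 held a CCAAT box, against 37.4% of all 32851 RefSeq windows. A GC box was in 25 of the 31, against 35.7% of all windows. The sterol regulatory element letters were in 1 of the 31, that of Hmgcs1, against 1.24% of all windows. Hsd17b7 held 3 CCAAT and 3 GC boxes, Ebp 2 and 1, Sc5d 1 and 4 and Hmgcs1 4 and 3, while Acat2 had a GC box only and Pmvk a CCAAT box only. A match is a run of letters and not a shown binding site. No window was found for Fdft1, Fdps, Npc1, Sqle and Stard4.

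T3 raised cholesterol synthesis enzymes in the WT-labelled cells. Of the 28 members 8 rose and 0 fell, which is 28.6% of them. Of all tested genes 4.96% were called higher and 3.48% lower, 8.44% in all. A gene was called where its edgeR adjusted p was under 0.05 over all tested genes. The 8 were Acat2, Mvk and Pmvk of the mevalonate steps, Fdft1 of squalene synthesis, and Nsdhl, Hsd17b7, Ebp and Sc5d of the post-lanosterol steps. Of the 5 control genes and of the 3 trafficking genes 0 were called by edgeR, with 1 of each higher at an unadjusted p under 0.05. DESeq2 called 1 trafficking gene. The median log2 fold change of the members was 0.50, against -0.03 for all genes, and 27 of 28 were above 0, against 46.4% of all genes.

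The largest change was in Hsd17b7 (ENSMUSG00000026675, chr1:169949535-169969241, minus strand), the reductase that restores the hydroxyl group of the sterol after demethylation. Its level was 186, 275, 268 and 269.5 CPM in the 4 WT-labelled T3 libraries, against 79.6, 65.9, 73.6 and 68.6 CPM in the 4 untreated ones. No T3 library came near an untreated one, and replicate 1 was the lowest of the T3 group. The means were 249 ± 42.3 CPM with T3 and 71.9 ± 6.01 CPM untreated (SD, n = 4 each), a 3.47-fold change (log2 fold change 1.79, SE 0.14, edgeR adjusted p = 5.25e-07). Ebp (ENSMUSG00000031168, chrX:8185329-8193512, minus strand) encodes the sterol isomerase, an enzyme whose inhibitors are known to promote oligodendrocyte formation in OPC cultures. It stood at 29.6, 40.1, 39.7 and 41.6 CPM with T3, against 20.2, 17.6, 18.8 and 16.7 CPM untreated, again without overlap (log2 fold change 1.04, SE 0.12, edgeR adjusted p = 4.05e-05).

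**Figure D1:**
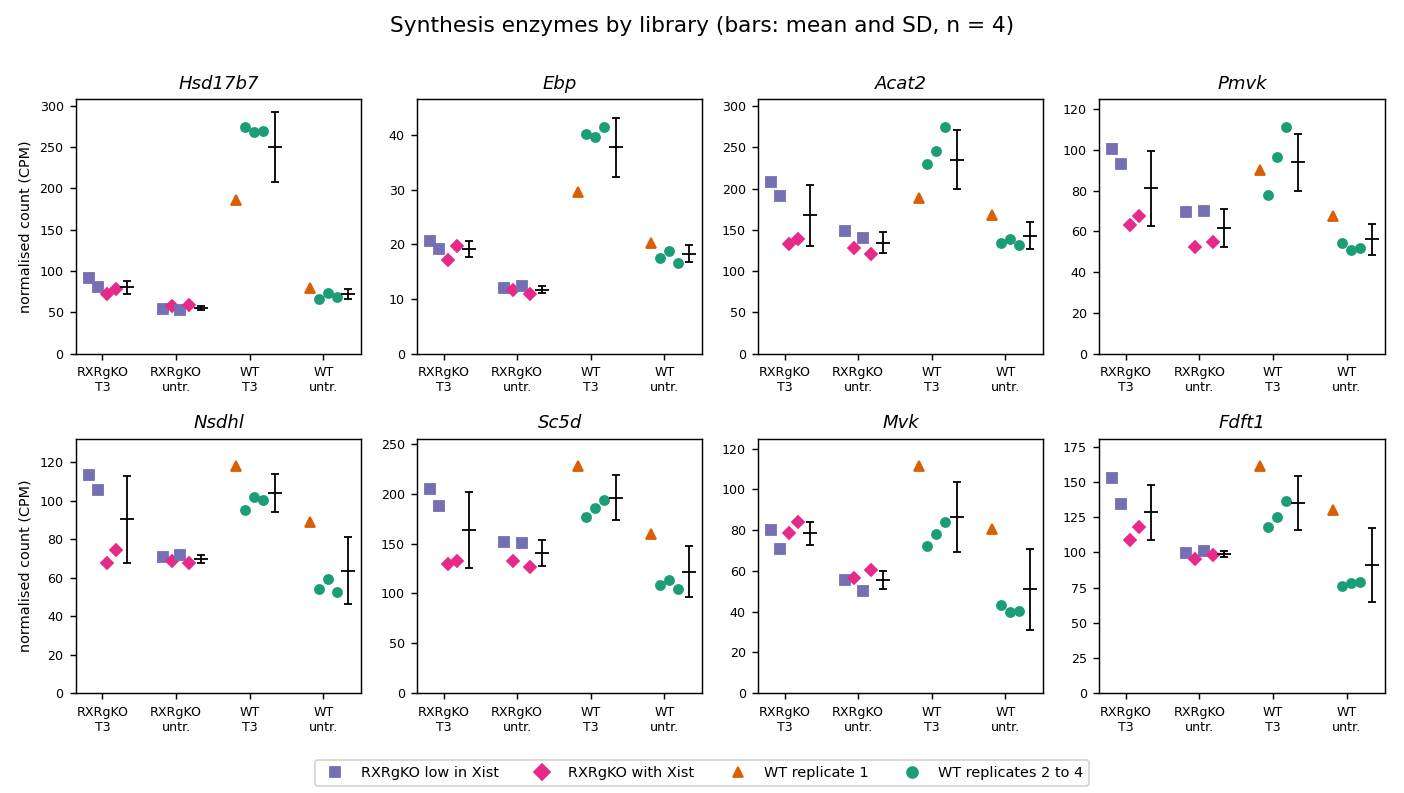
Normalised CPM (linear axis from 0) of the 8 enzymes called for T3 under the WT label, by group. Each point is a library, coloured by its set, and bars are mean and SD of 4 libraries. Hsd17b7 sits at 186 to 275 CPM in the WT-labelled T3 libraries and at or below 91.3 CPM in every other library.

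The other post-lanosterol enzymes called were Nsdhl and Sc5d. Nsdhl (ENSMUSG00000031349, chrX:72918557-72958514, plus strand) encodes the dehydrogenase of the demethylation complex and had 118, 95.2, 102 and 101 CPM with T3, against 89.3, 54.0, 59.2 and 52.4 CPM untreated (log2 fold change 0.71, SE 0.18, edgeR adjusted p = 0.0234). Sc5d (ENSMUSG00000032018, chr9:42251595-42264256, minus strand), the sterol desaturase, had 227, 176, 186 and 194 CPM with T3, against 159.9, 109, 114 and 105 CPM untreated (log2 fold change 0.69, SE 0.17, edgeR adjusted p = 0.02). For both, every T3 library lay above every untreated one, and replicate 1 was the highest library of each group. Of the remaining 5 post-lanosterol genes, the demethylase gene Cyp51 averaged 330.5 ± 77.2 CPM with T3 and 213 ± 91.3 CPM untreated (SD, n = 4 each; log2 fold change 0.63, edgeR adjusted p = 0.0992). Msmo1, which oxidises the sterol methyl groups, had a log2 fold change of 0.71, Dhcr7, a reductase of the end of the pathway, 0.62 and the sterol reductase gene Tm7sf2 0.46, with edgeR adjusted p from 0.126 to 0.198. Lbr, whose protein shares the reaction of Tm7sf2 but sits in the nuclear envelope, had a log2 fold change of 0.00 with an interval of 2 SE each side of -0.23 to 0.23.

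Among the mevalonate genes, Acat2 (ENSMUSG00000023832, chr17:12942890-12960747, minus strand), the thiolase that joins acetyl-CoA units, had 189, 230.0, 246 and 275 CPM with T3, against 168, 134, 138 and 132 CPM untreated (log2 fold change 0.72, SE 0.16, edgeR adjusted p = 0.0101). Pmvk (ENSMUSG00000027952, chr3:89454541-89469013, plus strand), phosphomevalonate kinase, had 90.2, 77.8, 96.8 and 111 CPM with T3, against 67.5, 54.5, 51.1 and 51.8 CPM untreated (log2 fold change 0.74, SE 0.17, edgeR adjusted p = 0.0114). The groups did not overlap for either gene. For Mvk (ENSMUSG00000041939, chr5:114444269-114460591, plus strand), mevalonate kinase, the T3 libraries had 111, 72.0, 78.2 and 84.0 CPM and the untreated ones 80.4, 43.3, 39.7 and 40.2 CPM (log2 fold change 0.76, SE 0.20, edgeR adjusted p = 0.0255). Untreated replicate 1 reached into the range of the T3 group. Acat2 counts carry an uncertainty, since 65.6% of its longest transcript is near-identical to another gene, mainly Acat3 (97.7% identity over 1477 bases), which had 102 to 261 counts per library against 3036 to 6668 for Acat2.

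Hmgcs1, which makes the precursor of mevalonate, was the most abundant member per length, with 397 CPM per kb of exon in WT-labelled T3 libraries and 287 CPM per kb in untreated ones. It had 2444, 1502, 1622 and 1735 CPM with T3, against 1999.8, 1055, 1139 and 1074 CPM untreated, and was not called (log2 fold change 0.47, SE 0.22, edgeR adjusted p = 0.223). Within replicates 2 to 4 the T3 libraries all lay above the untreated ones, whereas untreated replicate 1 was above each of those T3 libraries. Mvd, Idi1 and Fdps had log2 fold changes of 0.44, 0.59 and 0.46 with edgeR adjusted p of 0.122, 0.159 and 0.197. Ggps1, which leads isoprenoids away from sterols, had a log2 fold change of -0.05 with an interval of -0.24 to 0.14. Idi1 and Fdps were the least abundant per length, at 4.62 and 6.93 CPM per kb in the T3 libraries. Near-identical copies cover 33.3% of the longest Idi1 transcript and 27.3% of that of Ggps1, and 26.7% of the Fdps exon length is shared with an overlapping gene, so those 3 levels are uncertain.

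In the squalene and lanosterol steps Fdft1 (ENSMUSG00000021273, chr14:63145150-63179578, minus strand), squalene synthase, had 161, 118, 125 and 136 CPM with T3, against 130.1, 76.4, 78.4 and 79.1 CPM untreated, with untreated replicate 1 inside the T3 range (log2 fold change 0.57, SE 0.17, edgeR adjusted p = 0.0478). A pseudogene of Fdft1 with 0 to 12 counts per library and an overlap of 774 exon bases with Ctsb on the opposite strand make its counts uncertain, since the strand setting of the counting is not given in the sources used here. Sqle, squalene epoxidase, and Lss, lanosterol synthase, were not called, with log2 fold changes of 0.44 and 0.52 (edgeR adjusted p = 0.331 and 0.278). In both genes replicate 1 was far above the other libraries of its group, at 349.7 CPM of Sqle with T3, against 181 to 190.4 CPM in replicates 2 to 4.

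The number of members called for T3 under the WT label depended on how the replicate 1 libraries entered. Residual correlations of same-numbered T3 and untreated libraries were 0.648 for replicate 1 and 0.164 to 0.247 for replicates 2 to 4. Only replicate 1 matched its own number best, so pairing of the others is uncertain. With the replicate number as a block 22 members were higher and 0 lower, against 16% of all genes higher and 29.4% called in all. The block left Ggps1, Lbr, Srebf1, Scap, Npc1 and Npc2 uncalled. Without both replicate 1 libraries 18 members were higher, against 7.73% of all genes, and without the untreated one alone also 18, against 7.11%. Leaving out untreated replicate 2, 3 or 4 left Acat2, Pmvk, Hsd17b7 and Ebp, 4 each time, against 3.06%, 2.95% and 3.09% of all genes. Leaving out T3 replicate 1 or 4 gave 5 each, with Npc2 and Sc5d as the fifth gene, against 5.22% and 3.34%. Acat2, Pmvk, Hsd17b7 and Ebp were called whichever single library was left out, while the highest adjusted p was 0.132 for Mvk, 0.191 for Fdft1, 0.0962 for Nsdhl and 0.0808 for Sc5d. When the counts were summed per library set, leaving 2 values per group, 0 members were called, against 0.0605% of all genes.

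Under the RXRgKO label T3 raised 2 of the 28 members and lowered 0, which is 7.14%. Of all genes 2.01% were called higher and 0.794% lower, 2.81% in all. Both were post-lanosterol enzymes. Ebp had 20.6, 19.2, 17.1 and 19.6 CPM in the RXRgKO-labelled T3 libraries, against 12.1, 11.6, 12.4 and 10.8 CPM in the untreated ones (log2 fold change 0.71, SE 0.12, edgeR adjusted p = 0.00315). Hsd17b7 had 91.3, 80.4, 72.5 and 77.6 CPM with T3, against 54.2, 57.1, 53.3 and 58.3 CPM untreated (log2 fold change 0.53, SE 0.13, edgeR adjusted p = 0.0396). In both genes every T3 library was above every untreated one. Ebp was called whichever single library was left out, with adjusted p up to 0.0191, and Hsd17b7 in none of these fits, with adjusted p up to 0.125. Each was uncalled when either Xist set was left out, which leaves 2 libraries per group.

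The other 26 members were not called under the RXRgKO label, but 27 of 28 had a log2 fold change above 0, against 49.8% of all genes, with a median of 0.29 against 0.00 for all genes. Acat2 had 207, 191, 133 and 139 CPM with T3, against 149, 128, 141 and 121 CPM untreated (log2 fold change 0.32, edgeR adjusted p = 0.349). Pmvk had 101, 93.2, 63.3 and 67.7 CPM with T3, against 69.8, 52.5, 70.0 and 55.0 CPM untreated (log2 fold change 0.39, edgeR adjusted p = 0.267). In both, the pair of T3 libraries low in Xist was the highest and the pair with Xist lay among the untreated libraries. Sc5d had the same order, with 204, 187, 129.9 and 132 CPM with T3, against 152, 133, 151 and 126 CPM untreated (log2 fold change 0.22, edgeR adjusted p = 0.565). Nsdhl had 114, 106, 67.8 and 74.6 CPM with T3, against 70.9, 68.5, 71.8 and 67.9 CPM untreated (log2 fold change 0.37, edgeR adjusted p = 0.333). Mvk had 80.0, 70.9, 78.6 and 84.1 CPM with T3, against 55.7, 56.5, 49.9 and 60.6 CPM untreated (log2 fold change 0.49, edgeR adjusted p = 0.231). Fdft1 had 153, 134, 109 and 118 CPM with T3, against 99.9, 95.6, 101 and 98.3 CPM untreated (log2 fold change 0.38, edgeR adjusted p = 0.284). The Mvk and Fdft1 libraries did not overlap between treatments. In all, 8 members had every T3 library above every untreated one under the RXRgKO label, where 7.87% of all genes did. Under the WT label 6 members did, where 7.69% of all genes did, and 0 members had every T3 library below under either label, where 5.5% of all genes did under the RXRgKO label and 7.74% under the WT label.

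**Figure D2:**
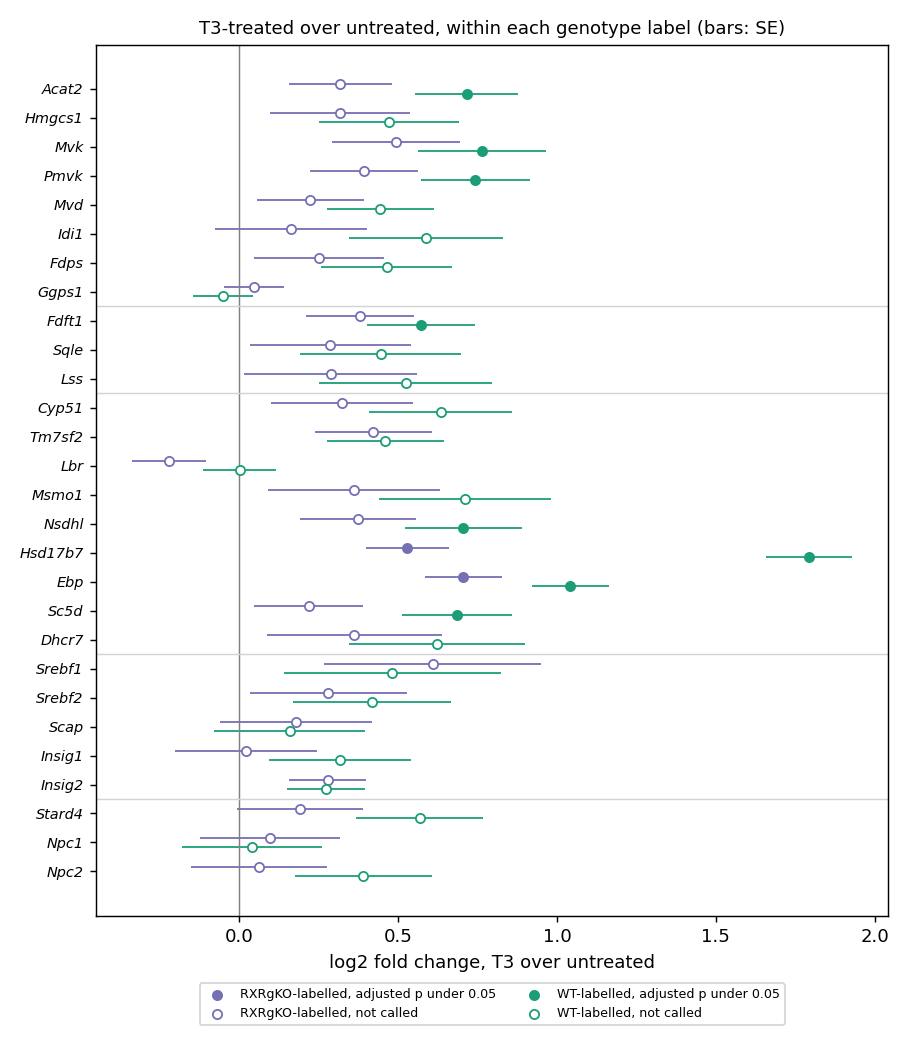
Log2 fold change of T3 over untreated for the 28 genes in pathway order, with RXRgKO-labelled libraries in violet and WT-labelled libraries in green, bars showing the SE and filled points an edgeR adjusted p under 0.05. The WT-labelled median is 0.50 and the RXRgKO-labelled median 0.29, and Hsd17b7 under the WT label lies farthest right at 1.79.

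With the set of each library as a term in the model, T3 raised 24 members and lowered 0 under the WT label, against 20.4% of all genes higher and 18% lower. Under the RXRgKO label it raised 19 and lowered 1, Lbr, against 20.1% of all genes higher and 13.5% lower. Libraries of a set count as separate replicates in this fit, and with counts summed per set 0 members were called under either label. Sets of one name were not shown to be alike between treatments. Untreated and with T3, Ddx3y was 13.9 to 15.8 and 68.1 to 78.3 CPM in WT-labelled replicates 2 to 4. In the RXRgKO-labelled set with Xist it was 51.2 to 52.9 and 20.7 to 22.1 CPM. It was closer in the set low in Xist (115 to 118 and 124 to 126 CPM) and in WT-labelled replicate 1 (73.3 and 60.6 CPM). The sets differed in size of change. In WT-labelled replicate 1 the median log2 change of the 28 members was 0.31 and in replicates 2 to 4 it was 0.61. Among the RXRgKO-labelled libraries it was 0.40 in the set low in Xist and 0.17 in the set with Xist. Msmo1 changed by 0.51 in the RXRgKO-labelled set low in Xist, by 0.09 in the set with Xist, by 0.14 in WT-labelled replicate 1 and by 0.96 in WT-labelled replicates 2 to 4. These changes within sets are descriptions without a test, and they need not compare like cultures.

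**Figure D3:**
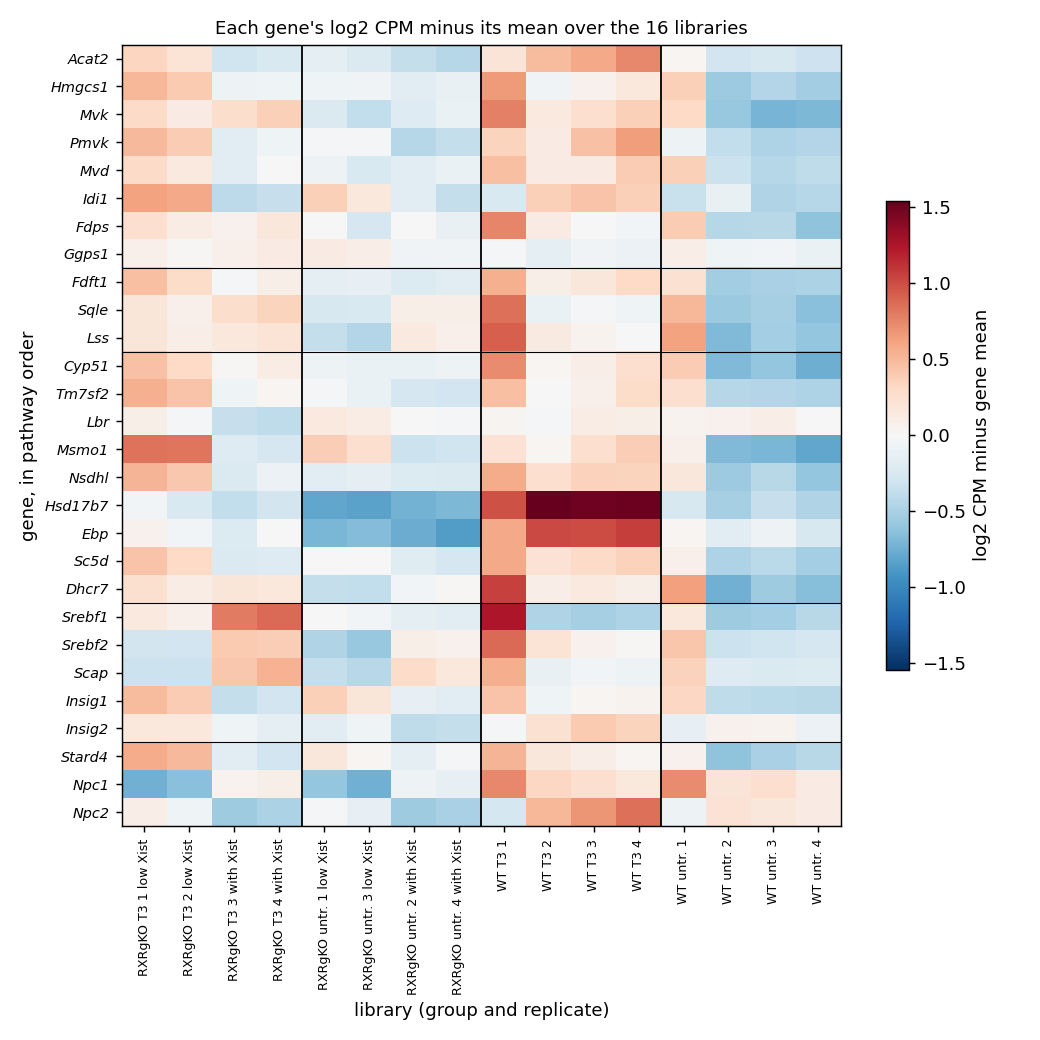
Heat map of the 28 genes (rows, in pathway order) over the 16 libraries (columns, by group and set). Colour gives log2 CPM minus the gene's mean over all 16 libraries, red above and blue below, and WT-labelled replicate 1 with and without T3 is redder than replicates 2 to 4 of its group in many synthesis genes, with Hsd17b7, Ebp, Acat2 and Idi1 the other way in the T3 group.

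The T3 response differed between the labels in 1 member. Hsd17b7 changed by a log2 of 0.53 under the RXRgKO label and 1.79 under the WT label, a difference of -1.27 with an SE of 0.19 (edgeR adjusted p = 0.0143 for the interaction term). That is 1 of 28 members, 3.57%, against 0.0557% of all genes with a lower response, 0.0101% with a higher one and 0.0658% in all. The difference lay between -1.38 and -1.21 whichever single library was left out, but its adjusted p rose to as much as 0.0735. It was not called without untreated replicate 2 or 4 of either label, without T3 replicate 4 of either label, or without RXRgKO-labelled T3 replicate 3. It was also not called with the replicate block (edgeR adjusted p = 0.0748), with counts summed per set (1) or without the RXRgKO-labelled libraries with Xist (0.126). In the 4 library sets Hsd17b7 rose by log2 0.67 and 0.38 under the RXRgKO label and by 1.23 and 1.96 under the WT label, so the largest RXRgKO-labelled value lay below the smallest WT-labelled one. Hsd17b7 lies 2.31 Mb from Rxrg on chromosome 1, and the part of that position in this result was not tested.

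For the other 27 members the interaction test gave edgeR adjusted p of 1. The difference for Ebp was -0.34 with an interval of -0.68 to 0.00, that for Sc5d -0.47 with an interval of -0.96 to 0.02 and that for Acat2 -0.40 with an interval of -0.85 to 0.06. The median difference over the members was -0.25, against 0.03 over all genes, and 5 of 28 members were above 0, against 54.8% of all genes. These intervals do not show that the genes responded alike under both labels. With the library set as a term, Sc5d, Insig1 and Stard4 were also called with a smaller response under the RXRgKO label, making 4 members, against 2.95% of all genes. That fit counts libraries of a set as separate replicates, and with counts summed per set 0 members and 0 of 24773 genes were called.

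Comparing genotype labels with T3 present, 3 of 28 members were lower under the RXRgKO label and 0 higher, which is 10.7%. Of all genes 6.8% were called lower and 8.1% higher, 14.9% in all. Hsd17b7 averaged 80.4 ± 7.96 CPM in RXRgKO-labelled T3 libraries and 249 ± 42.3 CPM in WT-labelled T3 libraries (SD, n = 4 each; log2 fold change -1.63, SE 0.13, edgeR adjusted p = 7.12e-07). Ebp averaged 19.1 ± 1.50 CPM under the RXRgKO label and 37.7 ± 5.48 CPM under the WT label (SD, n = 4 each; log2 fold change -0.98, SE 0.12, edgeR adjusted p = 3.19e-05). Neither gene's libraries overlapped between labels, and both calls held whichever single library was left out. Ebp and Nsdhl are on the X chromosome, and the RXRgKO-labelled libraries differ in Xist. WT-labelled replicates 2 to 4 differ in it too, with 276 to 365 CPM with T3 and 1198 to 1382 CPM untreated. What this contributes to the calls of Ebp and Nsdhl was not tested. Ebp lay within 17.1 to 20.6 CPM in both Xist sets with T3, whereas Nsdhl had 114 and 106 CPM in the T3 libraries low in Xist and 67.8 and 74.6 CPM in those with Xist. The third gene was Npc2 (ENSMUSG00000021242, chr12:84754562-84773152, minus strand), the soluble protein that hands cholesterol to Npc1 in late endosomes. It had 285, 255, 182 and 191 CPM under the RXRgKO label, against 221, 381, 427 and 481 CPM under the WT label, with WT-labelled replicate 1 inside the RXRgKO-labelled range (log2 fold change -0.73, SE 0.22, edgeR adjusted p = 0.0301). Npc2 was not called when RXRgKO-labelled replicate 3 or 4 or WT-labelled replicate 2, 3 or 4 was left out, with adjusted p up to 0.0981. In all 3 members, Hsd17b7, Ebp and Npc1, had every RXRgKO-labelled T3 library below every WT-labelled one, where 8.91% of all genes did. Ggps1 was the 1 member with every one above, where 9.17% of all genes did.

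Without T3, 2 members were lower under the RXRgKO label and 0 higher, which is 7.14%. Of all genes 5.16% were called lower and 6.17% higher, 11.3% in all, so the share was near the background. Ebp averaged 11.7 ± 0.679 CPM in untreated RXRgKO-labelled libraries and 18.3 ± 1.55 CPM in untreated WT-labelled ones (SD, n = 4 each; log2 fold change -0.64, SE 0.12, edgeR adjusted p = 0.00177), without overlap and in every fit that left out 1 library. Npc1 (ENSMUSG00000024413, chr18:12189692-12236400, minus strand), the membrane protein that moves cholesterol out of late endosomes, had 74.5, 106, 67.1 and 103 CPM under the RXRgKO label, against 187, 129.6, 135 and 123 CPM under the WT label (log2 fold change -0.71, SE 0.22, edgeR adjusted p = 0.0497). Its libraries did not overlap, but it was uncalled whichever single library was left out. With T3 Npc1 had 67.2, 71.8, 117 and 119.7 CPM under the RXRgKO label, against 188, 141, 135 and 126 CPM under the WT label, again without overlap (log2 fold change -0.65, edgeR adjusted p = 0.0596). Under the RXRgKO label Npc1 was lowest in the libraries low in Xist, and under the WT label highest in replicate 1. Untreated Npc2 had 260.3, 182, 244 and 188 CPM under the RXRgKO label, against 251, 311, 299.9 and 289.9 CPM under the WT label (log2 fold change -0.40, edgeR adjusted p = 0.309). Untreated Hsd17b7 was 55.7 ± 2.35 CPM under the RXRgKO label and 71.9 ± 6.01 CPM under the WT label, without overlap and not called (log2 fold change -0.37, edgeR adjusted p = 0.089). DESeq2 called it (adjusted p = 0.0461), as did edgeR fitted to the compared groups alone (adjusted p = 0.037). Stard4, a soluble sterol carrier, had log2 fold changes of -0.02 with T3 and 0.36 untreated (edgeR adjusted p = 0.973 and 0.331). Untreated, 3 members had every RXRgKO-labelled library below every WT-labelled one, namely Hsd17b7, Ebp and Npc1, where 9.36% of all genes did, and 0 members lay wholly above, where 9.35% of all genes did.

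**Figure D4:**
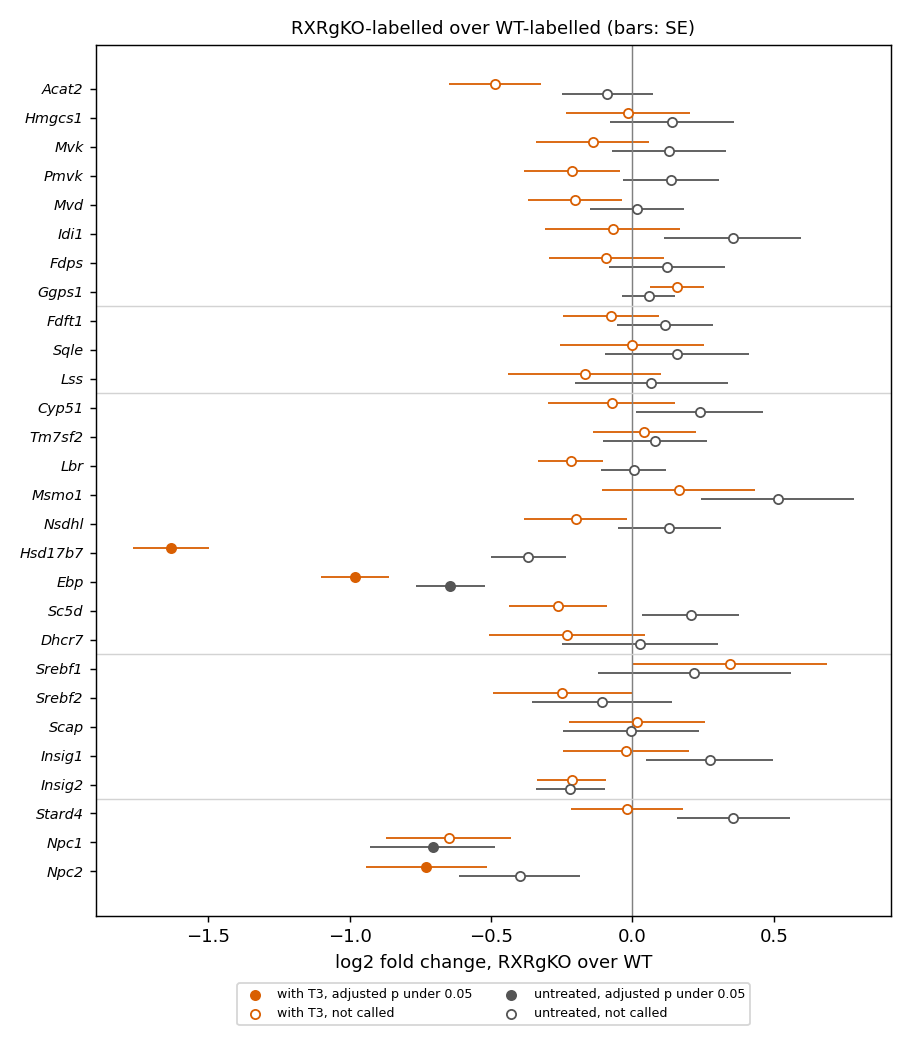
Log2 fold change of RXRgKO-labelled over WT-labelled libraries for the 28 genes in pathway order, with T3 in orange and untreated in grey, bars showing the SE and filled points an edgeR adjusted p under 0.05. Hsd17b7 with T3 lies farthest left at -1.63, and Ebp is below 0 in both treatments at -0.98 and -0.64.

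Over all 28 members the median difference between the labels moved with the libraries that were included. The median log2 fold change of the 28 members was -0.16 with T3, against 0.02 for all genes, and 0.10 untreated, against 0.00 for all genes. With T3, 5 of 28 were above 0, and 15 of 28 without both WT-labelled replicate 1 libraries, where the median was 0.02. Untreated, 20 of 28 were above 0, and leaving out WT-labelled replicate 4 gave 14 of 28 with a median of 0.01. Leaving out both replicate 1 libraries gave 23 of 28, against 55.1% of all genes, with a median of 0.35, against 0.04 for all genes. There the untreated comparison called Mvk, Fdps, Fdft1, Sqle, Lss, Cyp51 and Dhcr7 higher and Ebp lower. These were 8 in place of 2, against 8.15% of all genes higher and 6.57% lower. With counts summed per set, which gives replicate 1 as much weight as replicates 2 to 4 together, the untreated median was -0.16, against 0.02 for all genes. There 0 members were called, against 0.569% of all genes. With T3 present the median was -0.38 without the RXRgKO-labelled libraries low in Xist, against -0.04 for all genes. It was -0.13 without those with Xist, against -0.02 for all genes. Leaving out the libraries low in Xist gave 9 lower members in place of 3, adding Acat2, Pmvk, Idi1, Lbr, Nsdhl and Sc5d, against 7.58% of all genes lower. Leaving out WT-labelled T3 replicate 1 alone gave 5, with Acat2, Hsd17b7, Ebp and Npc2 lower and Srebf1 higher, against 15.4% of all genes called. Hmgcs1 had 2217, 2054, 1469 and 1491 CPM with T3 under the RXRgKO label and 1483, 1382, 1497 and 1439 CPM untreated, beside its WT-labelled values above. The 4 untreated RXRgKO-labelled libraries lay between untreated WT-labelled replicate 1 and replicates 2 to 4.

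With group means alone, the SREBP control genes were not called by edgeR, DESeq2 or voom in any of the 5 comparisons, and their libraries parted by set. At an unadjusted p under 0.05, 1 of 5 was higher with T3 under each label and 0 of 5 differed in the other 3 comparisons. With the replicate number as a block edgeR called 3 of the 5 higher with T3 under the WT label, against 16% of all genes. These were Srebf2 (log2 fold change 0.40, edgeR adjusted p = 0.00246), Insig1 (log2 fold change 0.33, edgeR adjusted p = 0.0127) and Insig2 (log2 fold change 0.26, edgeR adjusted p = 0.0414). The library set as a term called 4 of 5 higher with T3 under each label, without Insig1 under the RXRgKO label and without Srebf1 under the WT label. Of all genes 20.1% and 20.4% were higher there under the RXRgKO and WT labels. That fit counts libraries of a set as separate replicates, and with counts summed per set 0 members were called. Without WT-labelled T3 replicate 1, Srebf1 was higher under the RXRgKO label with T3 (log2 fold change 1.02, edgeR adjusted p = 0.00456). Srebf1 (ENSMUSG00000020538, chr11:60199089-60222581, minus strand) had 278, 265, 439.9 and 461 CPM in RXRgKO-labelled T3 libraries, against 251, 228, 245 and 223 CPM in untreated ones (log2 fold change 0.61, edgeR adjusted p = 0.403). In WT-labelled T3 libraries it had 598, 182, 176 and 181 CPM, against 280.4, 172, 175 and 188 CPM in untreated ones (log2 fold change 0.48, edgeR adjusted p = 0.45). With T3 it was high in 3 libraries, RXRgKO-labelled replicates 3 and 4 and WT-labelled replicate 1. Within sets its log2 change with T3 was 0.13 in the RXRgKO-labelled set low in Xist, 1.00 in that with Xist, 1.09 in WT-labelled replicate 1 and 0.01 in WT-labelled replicates 2 to 4. The synthesis enzymes were ordered otherwise, with a median log2 change over the 20 of 0.49, 0.16, 0.32 and 0.74 in the same 4 sets. The set with the largest Srebf1 change among the RXRgKO-labelled libraries thus had the smaller enzyme change.

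Srebf2 (ENSMUSG00000022463, chr15:82147181-82205379, plus strand), whose protein acts mainly on cholesterol genes, had 119.9, 118, 192 and 189 CPM in RXRgKO-labelled T3 libraries, against 106, 155, 96.6 and 152 CPM in untreated ones (log2 fold change 0.28, edgeR adjusted p = 0.611). In WT-labelled T3 libraries it had 266, 169, 153 and 147 CPM, against 195, 116, 118 and 121 CPM in untreated ones (log2 fold change 0.42, edgeR adjusted p = 0.349). Within each of the 4 sets T3 libraries were above untreated ones on average, by a log2 of 0.24, 0.31, 0.45 and 0.40 in the order used for Srebf1. Srebf2 was lowest in the RXRgKO-labelled libraries low in Xist with and without T3. Scap, the sterol sensor that escorts SREBPs, changed by a log2 of 0.18 under the RXRgKO label and 0.16 under the WT label, with adjusted p of 0.747 and 0.753 by edgeR.

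Insig1 (ENSMUSG00000045294, chr5:28071363-28078662, plus strand), itself a known SREBP target, had 236, 221, 131 and 138 CPM in RXRgKO-labelled T3 libraries, against 219, 155, 193 and 149.9 CPM in untreated ones (log2 fold change 0.02, edgeR adjusted p = 0.972). In WT-labelled T3 libraries it had 229, 161, 173 and 176 CPM, against 212, 129, 127 and 125 CPM in untreated ones (log2 fold change 0.32, edgeR adjusted p = 0.448). It was highest in the RXRgKO-labelled libraries low in Xist and in WT-labelled replicate 1. Insig2 (ENSMUSG00000003721, chr1:121304353-121332589, minus strand) had 35.9, 35.9, 30.7 and 29.1 CPM in RXRgKO-labelled T3 libraries, against 28.6, 24.5, 30.5 and 24.9 CPM in untreated ones (log2 fold change 0.28, edgeR adjusted p = 0.272). In WT-labelled T3 libraries it had 31.8, 37.9, 42.4 and 40.7 CPM, against 29.4, 33.7, 33.2 and 30.0 CPM in untreated ones (log2 fold change 0.27, edgeR adjusted p = 0.199). Per kb of exon Insig1 was the more abundant in all 4 groups, at 58.7, 59.7, 57.9 and 47.9 CPM per kb in RXRgKO T3, WT T3, RXRgKO untreated and WT untreated libraries. Insig2 had 9.47, 11.0, 7.81 and 9.10 CPM per kb in the same order.

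**Figure D5:**
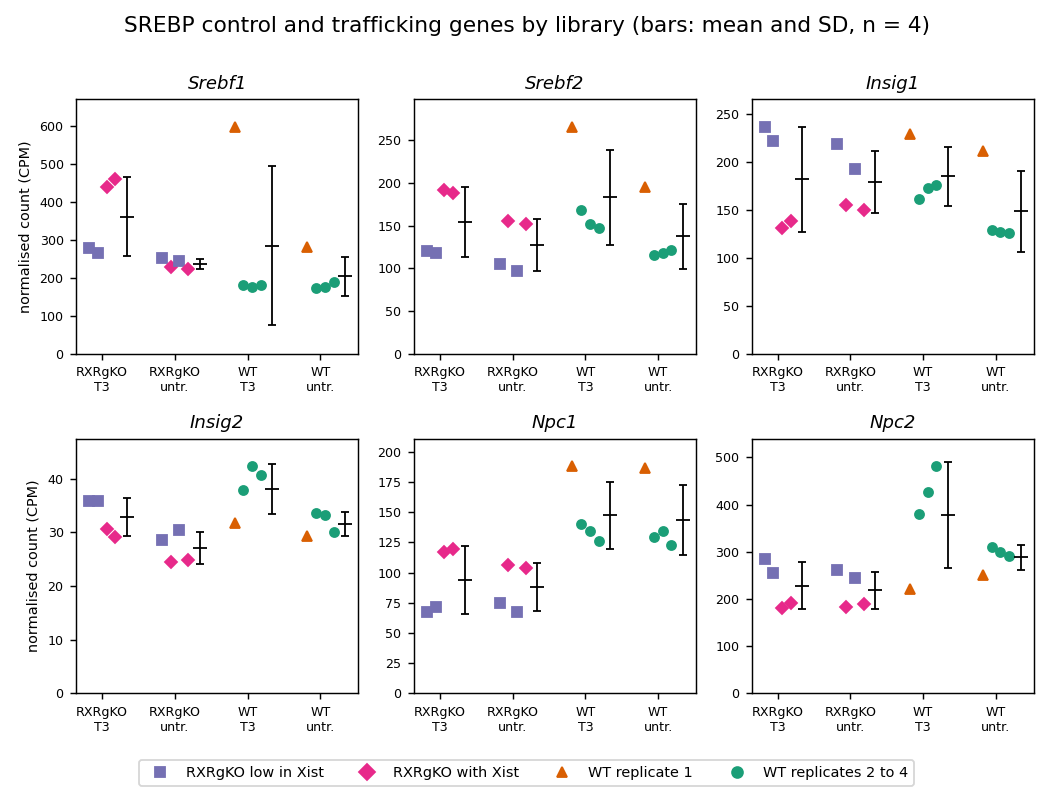
Normalised CPM (linear axis from 0) of 4 SREBP control genes and the 2 endosomal transport genes, by group. Each point is a library, coloured by its set, and bars are mean and SD of 4 libraries. Srebf1 reaches 598 CPM in WT-labelled T3 replicate 1 and 440 and 461 CPM in the RXRgKO-labelled T3 libraries with Xist, above all other libraries.

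Neighbouring pathways were followed with lists that hold none of the 28 genes. Of 16 fatty acid synthesis genes, T3 raised 6 and lowered 0 under the WT label, with a median log2 fold change of 0.53, against 4.96% of all genes higher, 3.48% lower and a median of -0.03. They included Elovl5, an elongase (log2 fold change 0.89, edgeR adjusted p = 0.0153), Lpin1, a phosphatidate phosphatase (log2 fold change 0.57, edgeR adjusted p = 0.0325), and Gpam, the first acyltransferase of glycerolipid synthesis (log2 fold change 0.83, edgeR adjusted p = 0.0443). Under the RXRgKO label edgeR called 0 of the 16, with a median of 0.26 against 0.00 for all genes, while 5 were higher at an unadjusted p under 0.05 and DESeq2 called 1. Between labels edgeR also called 0 of 16, with 2 lower with T3 and 1 higher untreated at an unadjusted p under 0.05, and DESeq2 called 1 with T3. For the response difference the count was 0 by edgeR, by unadjusted p and by DESeq2. Of 12 genes for SREBP processing and sterol-regulated degradation, Erg28, a scaffold of the demethylation complex, rose with T3 under the WT label (log2 fold change 0.73, edgeR adjusted p = 0.00304), 1 of 12 against 4.96% of all genes higher, and edgeR called 0 of the 12 in the other 4 comparisons. There the unadjusted p was under 0.05 for 2 with T3 under the RXRgKO label, 1 between labels with T3, 1 untreated and 0 for the difference, and DESeq2 called 1, 1, 0 and 0.

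Among 12 genes of the isoprenoid branches, T3 raised 3 under the WT label, against 4.96% of all genes higher, namely Rabggta, a subunit of Rab prenyltransferase (log2 fold change 0.66, edgeR adjusted p = 0.00415), and Fntb and Fnta, the subunits of farnesyltransferase (log2 fold change 0.71, edgeR adjusted p = 0.0313 and log2 fold change 0.52, edgeR adjusted p = 0.0484). Under the RXRgKO label T3 raised 1 of the 12, Fnta (log2 fold change 0.70, edgeR adjusted p = 0.0209), against 2.01% of all genes higher. Fntb was lower under the RXRgKO label with T3 (log2 fold change -1.64, edgeR adjusted p = 2.92e-05) and without (log2 fold change -1.08, edgeR adjusted p = 0.0014), and Fnta was lower without T3 (log2 fold change -0.61, edgeR adjusted p = 0.0138). These were 1 of 12 with T3 and 2 of 12 untreated, near the 14.9% and 11.3% of all genes called. Of 18 tested genes for sterol esterification, oxidation and lysosomal handling, T3 raised 2 under the WT label, near the 8.44% of all genes called. Between labels 4 were called with T3 and 3 untreated, against 14.9% and 11.3% of all genes. The 2 raised by T3 under the WT label were Nceh1, a cholesteryl ester hydrolase (log2 fold change 0.73, edgeR adjusted p = 0.00331), and Cyp46a1, the brain enzyme that hydroxylates cholesterol for export (log2 fold change 0.61, edgeR adjusted p = 0.0181). Cyp46a1 was lower under the RXRgKO label with T3 (log2 fold change -1.47, edgeR adjusted p = 7.27e-06) and untreated (log2 fold change -1.08, edgeR adjusted p = 0.000153). Gramd1b, a sterol carrier of the endoplasmic reticulum, was lower in both as well (log2 fold change -0.49, edgeR adjusted p = 0.0298 with T3 and log2 fold change -0.69, edgeR adjusted p = 0.00401 untreated). Stard5, a soluble sterol-binding protein, was higher under the RXRgKO label with T3 (log2 fold change 1.29, edgeR adjusted p = 0.000123) and untreated (log2 fold change 1.17, edgeR adjusted p = 0.000365). Nceh1 was the fourth gene called with T3 between labels (log2 fold change -0.43, edgeR adjusted p = 0.049), and edgeR called 0 of the 18 for T3 under the RXRgKO label or for the response difference. The unadjusted p was under 0.05 for 4 and 1 of them, and DESeq2 called 2 and 0.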

How the data were processed

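RNA from 16 libraries was measured. The deposited files hold raw read counts per Ensembl gene for 55335 genes, made with STAR 2.5.3a and HTSeq 0.6.1p1 on the mm10 build, per the submitters' processing notes. Libraries were made from 200 ng of RNA by poly-A selection with dUTP strand marking, per the labels' protocols. Neither a strand setting for counting nor the annotation used is stated in the sources at hand. Reads in no gene made up 11.5% to 23.5% of each library and, with the other summary lines, stayed out of all tests. GENCODE M21 on GRCm38 gave symbols and positions for 55154 identifiers, and RefSeq GRCm38.p6 the promoter windows. Copies were sought among transcripts at 95% identity over at least 150 bases.

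All 16 libraries entered 1 edgeR 4.0.16 quasi-likelihood fit (R 4.3.3) with a mean per group, TMM factors, robust dispersions and filterByExpr, which left 19764 genes. Benjamini-Hochberg adjusted p under 0.05 over all of them was called. The SE is the absolute log2 fold change over the square root of the F statistic, and intervals are 2 SE each side. CPM are TMM-normalised. Intervals rest on the spread between libraries, and libraries of a set count there as separate replicates. The chi-square per gene treats reads as independent molecules, which reads without molecular identifiers are not. The pipeline was tested on simulated data. The response difference subtracts the WT-labelled T3 change from the RXRgKO-labelled one.

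Libraries of a group under a chi-square of 3 per gene, over genes with summed counts of 20 to 500, formed a set. Residual correlations of same-numbered libraries were 0.648, 0.247, 0.211 and 0.164 for T3 under the WT label, and only replicate 1 matched its own number best. For the other comparisons they were mixed. The main fit used no pairing, and fits with the replicate number as a block are given as alternatives only.

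Other tools were DESeq2 1.42.0 and voom of limma 3.58.1. Other edgeR fits used DESeq2 size factors, no filter (49786 genes), at least 1 CPM in 4 libraries, dispersions without the robust option, the compared groups alone, or the replicate number as a block. Further fits had library sets as a model term or summed counts within sets, or omitted 1 library, WT-labelled replicate 1 in both treatments, or an RXRgKO-labelled set. Members, gene lists, sets and alternatives were chosen with earlier results of these data known. Values in every library are given for members called in any comparison, for Srebf1 and Srebf2, Insig1 and Insig2, and, chosen after its values were seen, Hmgcs1. From each list without members up to 3 genes per comparison with the smallest adjusted p are named.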

Additional observations from a re-analysis of the deposited data

Results flagged for a closer look

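In the WT-labelled groups replicate 1 lay far from the other 3 libraries for many members, as the gap to its nearest neighbour, divided by the range of the 4 libraries, exceeded Dixon's critical value. That happened in 9 of 28 members with T3 and 16 of 28 untreated. The RXRgKO-labelled groups each split into 2 libraries and 2 by set, where a single library can hardly exceed that value, so the count of 0 of 28 there is no contrast. By chance about 1 group in 20 is expected to do so, and the members share the library.

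With T3, WT-labelled replicate 1 was high for Fdps at 41.4 CPM, Sqle at 349.7, Lss at 379, Dhcr7 at 116, Srebf1 at 598 and Scap at 156 CPM. It was low for Idi1 at 11.5 CPM, Hsd17b7 at 186 and Ebp at 29.6 CPM. Untreated WT-labelled replicate 1 was high for the mevalonate genes Hmgcs1 at 1999.8 CPM, Mvk at 80.4, Mvd at 98.9 and Fdps at 32.3 CPM. It was also high for Fdft1 at 130.1 CPM, Sqle at 276 and Lss at 306 CPM. Of the post-lanosterol genes it was high for Cyp51 at 349 CPM, Tm7sf2 at 63.1, Msmo1 at 319, Sc5d at 159.9 and Dhcr7 at 86.9 CPM. Among the control genes it was high for Srebf1 at 280.4 CPM, Srebf2 at 195, Scap at 136 and Insig1 at 212 CPM. The same libraries had the highest summed astrocyte markers, 15229 CPM with T3 and 8393 CPM untreated, and their part in these levels was not tested.

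The T3 response of Hsd17b7 differed between the labels by the interaction term (log2 -1.27, RXRgKO-labelled minus WT-labelled, edgeR adjusted p = 0.0143). The call was lost with the replicate block (edgeR adjusted p = 0.0748), with counts summed per set and without the RXRgKO-labelled libraries with Xist (edgeR adjusted p = 0.126). Every RXRgKO-labelled T3 library, at 72.5 to 91.3 CPM, was below every WT-labelled T3 library, at 186 to 275 CPM.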

How the results depend on the processing

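No called member changed direction under any alternative run. Counts of members called are given with the share of all genes called in the same fit in parentheses. For T3 under the WT label 8 members were called (8.44%), against 10 by DESeq2 (12.2%), and the other changes of tool, scaling, filter or samples fitted gave 7 or 8. The replicate block gave 22 (29.4%), a term for library set 24 (38.4%), summing counts within sets 0 (0.0605%), leaving out both replicate 1 libraries 18 (13.1%), and leaving out 1 library 4 to 18 (4.83% to 12%). For T3 under the RXRgKO label the count was 2 (2.81%). It was 1 with no low-count filter (0.765%), 0 with the replicate block (0.752%), 20 with the set as a term (33.6%), 0 with summed counts (0.0121%), 0 without the libraries low in Xist (4.02%), 0 without those with Xist (0.597%) and 1 to 1 leaving out 1 library (1.23% to 2.46%). With only the groups compared it was 3 (2.51%). Between labels untreated it was 2 (11.3%), against 3 by DESeq2 (14.2%) and 3 with only the groups compared (12.3%), both adding Hsd17b7, and 3 without the libraries with Xist (20.9%), adding Msmo1. It was 1 with no filter (3.63%), 1 with the block (9.06%), 0 with summed counts (0.569%), 8 without both WT-labelled replicate 1 libraries (14.7%), 1 without the RXRgKO-labelled libraries low in Xist (11.3%) and 1 to 2 leaving out 1 library (8.42% to 10.7%). With T3 it was 3 (14.9%), against 5 by DESeq2 (18.7%), 5 by voom (14%), 5 with DESeq2 size factors (15.3%), 0 with summed counts (0.444%), 5 without both WT-labelled replicate 1 libraries (20.5%), 9 without the libraries low in Xist (15.8%), and 2 to 5 leaving out 1 library (10.5% to 15.4%). The block there gave 2 (7.98%), as did only the groups compared (13.4%). For the response difference it was 1 (0.0658%), against 0 with the block (0.0202%; Hsd17b7 log2 -1.26, adjusted p = 0.0748), 4 with the set as a term (6.68%), 0 with summed counts (0%), 0 without the libraries with Xist (0.0694%) and 0 to 1 leaving out 1 library (0.0145% to 0.237%). Summed counts leave 2 values per group and few genes of any kind were called there. Leaving out a set leaves fewer libraries. The cause of the other changes was not tested. Outside the T3 comparison under the WT label the replicate numbers do not pair the libraries. Within it only replicate 1 matched its own number best. Signs turned only in values called in neither fit, 14 and 20 times for T3 under the WT and RXRgKO labels, 75 and 61 times between labels with and without T3, and 58 times for the difference. Members had at least 229 counts in every library, so depth was not limiting for detection.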

Other observations

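Hsd17b7, the member with the largest differences, lies on chromosome 1 near Rxrg, whose gene spans 167598384 to 167639623 on GRCm38. Of the 132 tested genes within 5 Mb on either side of Rxrg, a window chosen after the values were seen, 22 differed between the labels with T3, which is 16.7%, against 14.9% of all genes. Untreated, 20 of them differed, 15.2%, against 11.3% of all genes. With T3, 16 were higher and 6 lower under the RXRgKO label, where 8.1% of all genes were higher and 6.8% lower. Untreated, 16 were higher and 4 lower, where 6.17% of all genes were higher and 5.16% lower. Hsd17b7 was among those lower with T3. For the T3 response difference 1 of the 132 was called, Hsd17b7, against 0.0658% of all genes. The 5 genes called for T3 under the RXRgKO label and 13 under the WT label were 3.79% and 9.85% of them, near the 2.81% and 8.44% of all genes. What the position near Rxrg contributes to the Hsd17b7 values was not tested.

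The share of all gene counts that went to the 28 members was 0.457% to 0.638% in RXRgKO-labelled T3 libraries, 0.472% to 0.643% in WT-labelled T3 libraries, 0.461% to 0.496% in untreated RXRgKO-labelled libraries and 0.347% to 0.542% in untreated WT-labelled ones. WT-labelled replicate 1 had the largest share of its group with and without T3.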
